A study of Homo sapiens with 12 samples.

Results

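Human chromosome 19 carries the largest collection of zinc finger genes in the genome, and 216 of them were followed here in the human embryonic kidney line HEK293. The genes were taken from the annotation of the deposited count table: protein-coding genes of chromosome 19 whose symbol is ZNF followed by a number, kept where the mean over all 12 libraries was at least 1 CPM (reads per 1 M assigned reads, with TMM-scaled library sizes). The table annotates 249 such genes among 58735 genes of all kinds, so 33 were left out for their low level, and the highest mean among those was 0.841 CPM. Of the 33, 25 lie on the short arm, where 60 of the 216 lie, and 8 on the long arm, where the other 156 lie. All 216 were among the 17115 genes tested. Just inside the limit were ZNF563 at 1.17 CPM and ZNF442 at 1.13 CPM, and just outside were ZNF878 at 0.841 CPM and ZNF737 at 0.821 CPM.

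Most ZNF proteins bind DNA through a row of C2H2 zinc fingers, small folds that each hold a zinc ion and read a few bases. Many also carry a KRAB domain, which recruits the scaffold protein TRIM28 and through it the histone methyltransferase SETDB1 and HP1 proteins, so that the bound DNA is packed into silent chromatin. Transposable elements are their best known targets, and the genes arose by repeated local duplication, which left them in clusters along chromosome 19.

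The libraries were made from poly-A RNA of 4 groups, with 3 libraries in each. Wild-type HEK293 cells and cells with a knockdown of EXT1, a glycosyltransferase that builds heparan sulfate chains, were each grown attached to T75 flasks in DMEM with serum or in shaken suspension in serum-free EX-CELL 293 medium, all for 5 passages. Culture therefore differed in medium, serum and shaking together. The labels do not give the means of knockdown, do not say whether the knockdown cells were 1 clone, and do not say whether the libraries of a group came from separate cultures, so p-values measure no more than library-to-library spread, possibly a technical one.

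Each library held between 13.9 and 21.4 M reads assigned to genes. In adherent culture EXT1 ran from 51.7 to 53.1 CPM in wild type and from 11.8 to 12.5 CPM in the knockdown, and in suspension from 47.8 to 54.5 CPM and from 13.1 to 15.4 CPM, with every knockdown library below every wild-type library. The HEK293 markers VIM, NEFL, NEFM, PAX2 and LHX1 summed to between 335 and 571 CPM per library, and the leukocyte, hepatocyte and endothelial markers each to at most 1.02 CPM. The fibroblast list summed to between 15.6 and 32.1 CPM and was lowest in the wild-type adherent group. Its members did not share this order. COL1A2 and DCN were at most 0.0606 and 0.340 CPM. COL1A1 averaged 17.1, 27.4, 17.0 and 15.3 CPM in wild-type adherent, adherent knockdown, wild-type suspension and suspension knockdown cells. LUM averaged 0.642, 3.29, 10.1 and 12.7 CPM in the same order of groups. The part of this list in the results was not tested. The wild-type adherent libraries stood apart from each other: between replicates 2 and 3 the chi-square per degree of freedom of the counts was 23.6, against 2.50 to 11.1 for the other replicate pairs, and the slope of expression on transcript GC content was -0.15 log2 units per 10% GC in replicate 2 and 0.10 in replicate 3. Counts are given without both of these libraries where they differ. In bulk RNA, fewer cells that express a gene and less of its RNA per cell cannot be told apart.

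The promoters below are printed because the results turn on their genes: ZNF667, ZNF135 and ZNF83 moved in opposite directions in the 2 knockdown comparisons, as many chromosome 19 ZNF genes did, and ZNF486 and ZNF671 moved the other way round. Each line gives 300 bases around the start of the gene from RefSeq (GRCh38.p14), 5′ to 3′ on the strand of the gene, with matches in capitals to GGGCGG (the GC box bound by SP factors), CCAAT (the site of NF-Y) and ACTTCCGG (an ETS factor site), searched on both strands, so that CCGCCC marks a GC box on the other strand.
ZNF667, chr19:56477296-56477595, minus strand: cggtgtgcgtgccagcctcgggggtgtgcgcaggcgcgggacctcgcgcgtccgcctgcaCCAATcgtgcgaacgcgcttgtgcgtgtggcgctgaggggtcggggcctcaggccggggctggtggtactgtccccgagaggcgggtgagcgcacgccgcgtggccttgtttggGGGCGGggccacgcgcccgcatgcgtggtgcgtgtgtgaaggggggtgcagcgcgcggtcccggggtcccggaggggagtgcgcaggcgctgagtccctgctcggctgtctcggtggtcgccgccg
ZNF135, chr19:58058989-58059288, plus strand: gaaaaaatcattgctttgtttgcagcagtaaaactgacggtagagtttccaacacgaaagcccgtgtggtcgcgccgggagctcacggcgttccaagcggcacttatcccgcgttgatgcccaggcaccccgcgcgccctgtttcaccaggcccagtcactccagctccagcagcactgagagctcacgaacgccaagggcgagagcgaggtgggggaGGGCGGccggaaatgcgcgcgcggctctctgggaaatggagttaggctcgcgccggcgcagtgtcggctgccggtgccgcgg
ZNF83, chr19:52690447-52690746, minus strand: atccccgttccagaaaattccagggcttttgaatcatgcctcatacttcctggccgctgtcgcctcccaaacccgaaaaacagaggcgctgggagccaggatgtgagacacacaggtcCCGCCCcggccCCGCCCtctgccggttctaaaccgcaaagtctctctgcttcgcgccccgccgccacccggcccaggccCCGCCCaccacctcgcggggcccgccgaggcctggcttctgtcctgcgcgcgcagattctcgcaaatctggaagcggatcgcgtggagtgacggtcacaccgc
ZNF486, chr19:20166964-20167263, plus strand: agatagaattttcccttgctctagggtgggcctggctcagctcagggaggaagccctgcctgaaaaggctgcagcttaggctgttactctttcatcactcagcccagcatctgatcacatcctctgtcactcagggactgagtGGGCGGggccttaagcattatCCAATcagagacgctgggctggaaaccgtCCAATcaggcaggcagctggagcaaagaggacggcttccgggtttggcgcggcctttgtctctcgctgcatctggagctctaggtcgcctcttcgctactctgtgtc
ZNF671, chr19:57727575-57727874, minus strand: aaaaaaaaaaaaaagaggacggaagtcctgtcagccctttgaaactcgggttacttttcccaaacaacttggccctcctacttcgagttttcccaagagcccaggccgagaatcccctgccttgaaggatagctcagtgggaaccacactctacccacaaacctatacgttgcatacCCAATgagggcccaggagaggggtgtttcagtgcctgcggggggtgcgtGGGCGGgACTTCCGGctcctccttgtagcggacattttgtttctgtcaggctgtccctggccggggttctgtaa
RefSeq starts can differ from those of the count table, and the window of ZNF667 does not reach the start of its span given below. The windows hold 42 CpG dinucleotides in ZNF667, 32 in ZNF135, 29 in ZNF83, 10 in ZNF486 and 11 in ZNF671. The median over the 193 of the 216 genes that matched the promoter table was 21, and 42 was the highest count among them. Over the 193, the median difference between the knockdown effects (suspension minus adherent, log2) was 0.46 in the 100 genes at or over the median CpG count, with 51 called above 0 and 1 below, and 0.50 in the 93 under it, with 53 above and 2 below. GC boxes stand in all 5 windows, CCAAT stands in those of ZNF667, ZNF486 and ZNF671, and ACTTCCGG stands only in that of ZNF671.

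As a group, the chromosome 19 ZNF genes were highest in wild-type adherent cells and next highest in suspension knockdown cells. Summed over the genes, adherent cells gave 6133, 6591 and 5979 CPM in wild type, against 5318, 5149 and 5253 CPM after knockdown. Suspension cells gave 4846, 4712 and 4774 CPM in wild type, against 5887, 5639 and 5312 CPM after knockdown. Within each culture the 2 groups did not overlap: the knockdown was lower in all 3 adherent libraries and higher in all 3 suspension libraries. As a share of all reads the group means were 0.605%, 0.518%, 0.481% and 0.581% in the same order. A typical gene moved with the sum. The number of the 216 genes above their own 12-library mean ran from 148 to 175 in wild-type adherent libraries, 75 to 96 in adherent knockdown libraries, 46 to 63 in wild-type suspension libraries and 106 to 146 in suspension knockdown libraries.

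**Figure D1:**
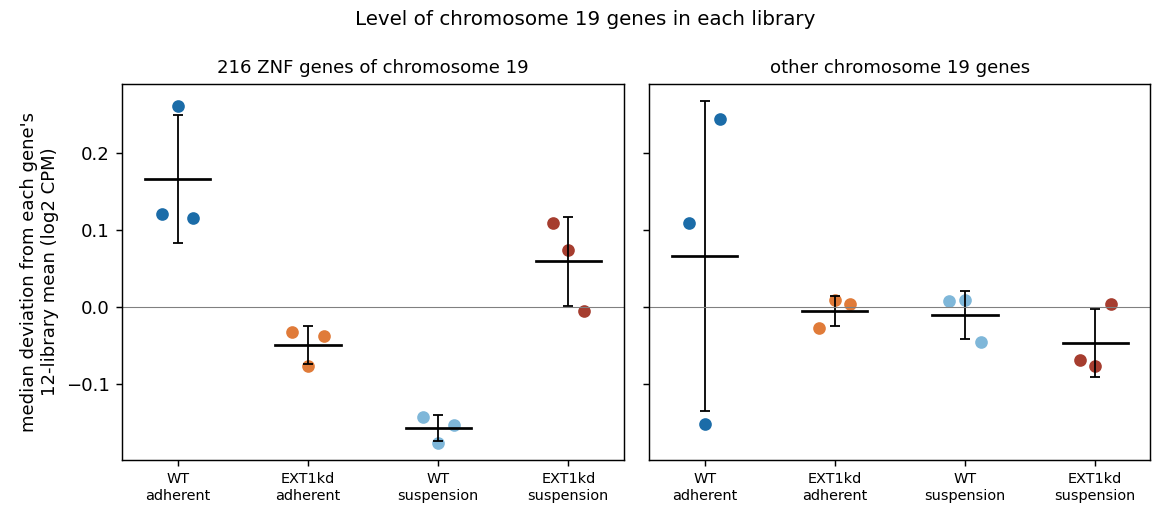
Median deviation of each library from the genes' own 12-library means (log2 CPM), for the 216 chromosome 19 ZNF genes (left) and 710 other protein-coding genes of chromosome 19 (right); points are libraries, and bars are the mean and SD of 3. The ZNF genes sit at 0.11 to 0.26 in wild-type adherent libraries and at -0.18 to -0.14 in wild-type suspension libraries, while the other genes of the chromosome spread from -0.15 to 0.24 within the wild-type adherent group alone.

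By group means, wild-type adherent cells held the highest level of 119 genes and suspension knockdown cells that of 69, whereas wild-type suspension cells held the lowest level of 113 and adherent knockdown cells that of 71. In 86 of the 216 genes (39.8%) both wild-type adherent and suspension knockdown cells had means above both other groups. The same order was found in 61 of 710 other protein-coding genes of chromosome 19 with the same minimum level (8.59%), in 13.0% of 230 ZNF genes on other chromosomes and in 9.41% of all genes tested.

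Knockdown in adherent culture lowered 74 and raised 7 of the 216 ZNF genes, and 135 did not pass the test (edgeR quasi-likelihood test, adjusted p under 0.05 over all genes tested). Of all genes tested, 11.8% were called lower and 15.2% higher. The median log2 fold change of the 216 genes was -0.24, with 182 of them below 0, and that of all genes tested was -0.01. Among the 710 other genes of chromosome 19, 114 were lower and 45 higher, with a median of -0.09, and among the 230 ZNF genes on other chromosomes 31 were lower and 16 higher, with a median of -0.06. The median of the chromosome 19 ZNF genes was -0.19 without wild-type adherent replicate 2, against -0.19 for the other genes of the chromosome in the same fit, and -0.26 without replicate 3, against 0.02. Without both libraries 47 genes were called lower. Scaling the libraries on the other chromosome 19 genes alone left 24 lower and 6 higher. The same scaling left 765 lower and 2411 higher of all 17115 genes tested.

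The largest fall was that of ZNF610, which encodes a KRAB zinc finger protein, from 2.24, 2.32 and 2.11 CPM before to 0.863, 0.730 and 0.683 CPM after knockdown, a log2 change of -1.54 (SE 0.31, adjusted p = 0.00107 by edgeR). Every knockdown library was below every wild-type library, on 122 and 37 reads in all. ZNF418, another KRAB gene, changed by -1.08 (SE 0.32), but the call was lost without wild-type adherent replicate 3 (adjusted p = 0.0595 by edgeR) or knockdown adherent replicate 2 (adjusted p = 0.056 by edgeR). ZNF135 stood at 3.22 ± 0.31 CPM in wild type and 1.62 ± 0.37 CPM in the knockdown (SD, n = 3; -0.996, SE 0.22). ZNF536, a regulator of neuronal differentiation that stands alone near the start of the long arm, went from 13.6 ± 0.59 to 7.59 ± 0.22 CPM (-0.84, SE 0.12). ZNF83 fell from 28.6 ± 3.94 to 16.9 ± 0.57 CPM (-0.75, SE 0.13), ZNF333 from 8.26 ± 0.93 to 5.05 ± 0.54 CPM (-0.72, SE 0.16) and ZNF627 from 7.04 ± 1.203 to 4.44 ± 0.87 CPM (-0.68, SE 0.16). Without both wild-type adherent replicates 2 and 3 the adjusted p was 0.0916 for ZNF333 and 0.172 for ZNF627.

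The 5 genes of highest level per length moved by little, and all in the same direction. ZNF146, which consists of zinc fingers with no KRAB domain, had the highest level, a mean of 96.4 FPKM (fragments per kilobase of gene length, scaled to library size). Wild-type libraries held 498, 519 and 457 CPM and adherent knockdown libraries 411, 394 and 400 CPM, a change of -0.29 (SE 0.06, adjusted p = 0.00199 by edgeR). The groups did not overlap, but the call was lost with scaling on the other chromosome 19 genes (adjusted p = 0.203), as were those of ZNF302 (adjusted p = 0.325) and ZNF45 (adjusted p = 0.36). ZNF428 at 28.4 FPKM changed by -0.43, ZNF302 at 18.4 FPKM by -0.28, ZNF45 at 18.3 FPKM by -0.24 and ZNF227 at 15.03 FPKM by -0.45, and all passed. By edgeR, the call of ZNF428 was lost without wild-type adherent replicate 3 or knockdown adherent replicate 1 (adjusted p = 0.064 and 0.0525). That of ZNF302 was lost without wild-type adherent replicate 2 or knockdown adherent replicate 1 or 3 (adjusted p = 0.0994, 0.0831 and 0.0752), and that of ZNF45 without wild-type adherent replicate 2 or knockdown adherent replicate 3 (adjusted p = 0.0589 and 0.112). Without both wild-type adherent replicates 2 and 3, the log2 change was -0.08 in ZNF45 and -0.21 in ZNF302.

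Of the 7 genes that rose in the adherent knockdown, 5 lie on the short arm between 19.7 and 24.0 Mb. The count of 7 became 4 without wild-type adherent replicate 1 or knockdown adherent replicate 1. ZNF90 rose from 1.90 ± 0.14 to 3.91 ± 0.36 CPM (SD, n = 3; 1.05, SE 0.21) and its neighbour ZNF486 from 3.44 ± 0.41 to 6.96 ± 1.81 CPM (1.02, SE 0.20). ZNF93, a KRAB zinc finger protein known to silence LINE-1 elements, rose from 4.49 ± 0.96 to 6.51 ± 1.10 CPM (0.55, SE 0.18). It was chosen for this comparison after its value was seen. ZNF506 rose by 0.41 (SE 0.10), its wild-type libraries holding 9.63, 9.70 and 9.06 CPM and its knockdown libraries 12.7, 12.4 and 12.6 CPM.

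Knockdown in suspension raised 78 and lowered 3 of the 216 genes, and 135 did not pass. Of all genes tested, 8.3% were called higher and 12.6% lower. The median log2 fold change was 0.23, with 177 of the 216 genes above 0, and that of all genes tested was 0.00. Among the other genes of chromosome 19, 44 were higher and 65 lower, with a median of -0.03, and among the ZNF genes on other chromosomes 38 were higher and 14 lower, with a median of 0.09. With scaling on the other chromosome 19 genes alone, 48 were higher and 3 lower, and without wild-type suspension replicate 2, 52 were higher. That scaling called 786 higher and 1223 lower of all 17115 genes tested. Without that library 777 of all genes tested were higher.

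ZNF667 went from 12.4, 14.4 and 14.97 CPM in wild-type suspension cells to 40.5, 29.3 and 30.4 CPM, a log2 change of 1.26 (SE 0.12, adjusted p = 1.1e-06 by edgeR). The lowest knockdown library was above the highest wild-type library. ZNF83 went from 23.7, 22.6 and 24.2 CPM to 59.0, 43.6 and 39.5 CPM (1.01, SE 0.13), and ZNF135 from 3.36, 3.10 and 4.42 CPM to 7.45, 8.14 and 7.45 CPM (1.09, SE 0.18). In both genes the groups did not overlap. ZNF347 rose from 2.52 ± 0.16 to 5.79 ± 1.14 CPM (SD, n = 3; 1.198, SE 0.20) and ZNF66 from 1.66 ± 0.20 to 3.82 ± 0.26 CPM (1.19, SE 0.23). ZNF154 had the largest change, 1.71 (SE 0.42), on few reads: 0.783, 0.526 and 0.345 CPM in wild type against 2.85, 1.21 and 1.57 CPM, or 28 and 90 reads in all.

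**Figure D2:**
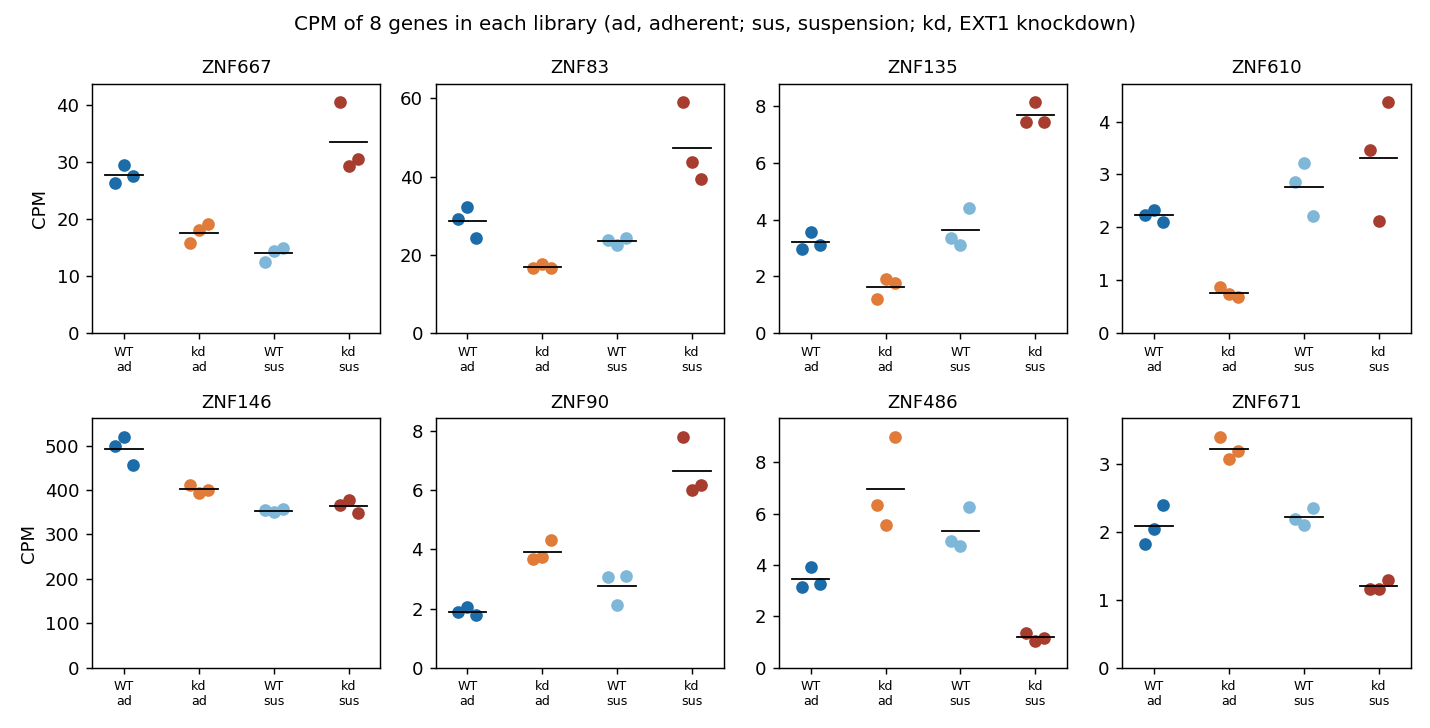
CPM of 8 chromosome 19 ZNF genes in each library, with the group mean as a line; axes start at 0. In ZNF667, ZNF83 and ZNF135 the knockdown points lie below wild type in adherent culture and above it in suspension, ZNF486 and ZNF671 show the reverse, and in ZNF90 the knockdown points lie above wild type in both.

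Of the 3 genes that fell in suspension, ZNF486 fell furthest: its wild-type libraries held 4.92, 4.73 and 6.28 CPM and its knockdown libraries 1.36, 1.03 and 1.18 CPM, a change of -2.15 (SE 0.24, adjusted p = 5.09e-06 by edgeR). The groups did not overlap, on 260 and 58 reads. ZNF671 went from 2.18, 2.10 and 2.35 CPM to 1.15, 1.15 and 1.29 CPM (-0.87, SE 0.23). ZNF446, the last gene of the set before the end of the long arm, fell by 0.46 on the log2 scale (SE 0.14), from 8.22, 8.18 and 8.42 CPM to 6.10, 5.22 and 6.67 CPM. The call for ZNF446 was lost without any 1 of wild-type suspension replicates 1, 2 and 3 (adjusted p = 0.0636, 0.0651 and 0.0729 by edgeR) or knockdown suspension replicates 1 and 2 (adjusted p = 0.0646 and 0.118).

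The 2 knockdown comparisons share no library. Both were past the threshold in 34 genes: 30 were lower in adherent culture and higher in suspension, 2 were the reverse (ZNF486 and ZNF671), 2 were higher in both (ZNF90 and ZNF506), and none was lower in both. Among all 17115 genes tested, rather than 216, the same 4 counts were 191, 450, 347 and 330. Among the 710 other chromosome 19 genes they were 13, 7, 5 and 12. The call of ZNF506 in suspension was lost without wild-type suspension replicate 1, 2 or 3 (adjusted p = 0.0618, 0.11 and 0.0702 by edgeR) or knockdown suspension replicate 2 or 3 (adjusted p = 0.0765 and 0.0778). That of ZNF671 in adherent culture was lost without wild-type adherent replicate 1 or 2 (adjusted p = 0.0954 and 0.0596) or knockdown adherent replicate 1, 2 or 3 (adjusted p = 0.102, 0.0514 and 0.0741).

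**Figure D3:**
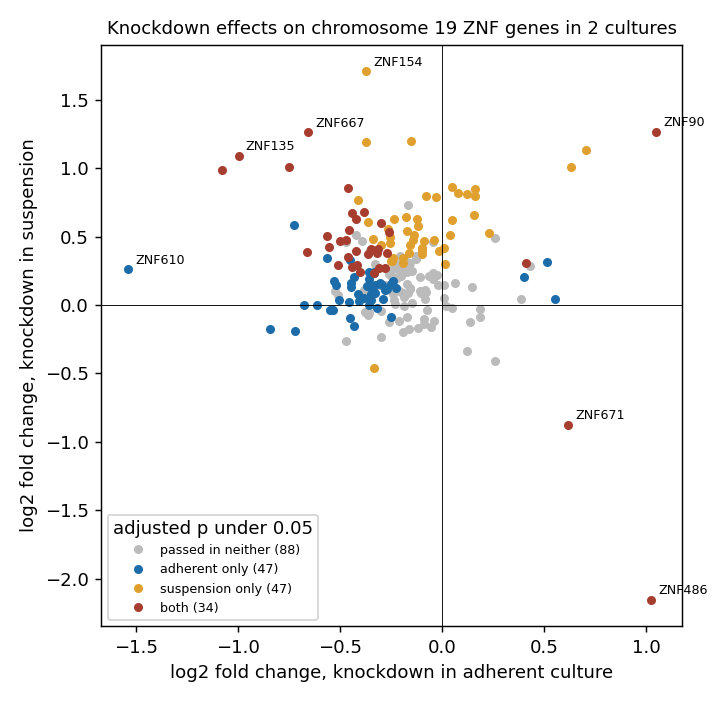
Log2 fold change of the 216 genes on EXT1 knockdown in adherent culture (x axis) against that in suspension (y axis), coloured by the comparisons in which the gene passed the threshold. Of the points, 152 lie below 0 on the x axis and above 0 on the y axis, 9 the reverse, 25 above 0 on both and 30 below 0 on both.

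The difference between the 2 knockdown effects, tested as an interaction (suspension minus adherent), was past the threshold and above 0 in 115 genes, and past it and below 0 in 3. Of all genes tested, 9.46% were called above and 14.6% below. The median difference was 0.48 log2 units for the 216 genes, 0.06 for the other chromosome 19 genes (84 above and 48 below), 0.13 for ZNF genes on other chromosomes (39 above and 11 below) and 0.00 for all genes tested. With scaling on the other chromosome 19 genes alone, 51 were above and 3 below, with a median of 0.44. That scaling put 630 above and 1921 below of all 17115 genes tested. The largest differences above 0 were those of ZNF135 (2.09, SE 0.28), ZNF154 (2.08, SE 0.55), ZNF418 (2.06, SE 0.45) and ZNF667 (1.92, SE 0.17). ZNF418 rested on 42 to 101 reads per group. Below 0 stood ZNF486 (-3.18, SE 0.31), ZNF671 (-1.49, SE 0.31) and ZNF414 (-0.67, SE 0.24). ZNF414 was at the edge of the threshold (adjusted p = 0.0463 by edgeR, and 0.0531 by DESeq2), and its call was lost without wild-type adherent replicate 2, any adherent knockdown replicate, wild-type suspension replicate 1 or 2, or suspension knockdown replicate 1 or 2, with adjusted p between 0.0796 and 0.114.

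**Figure D4:**
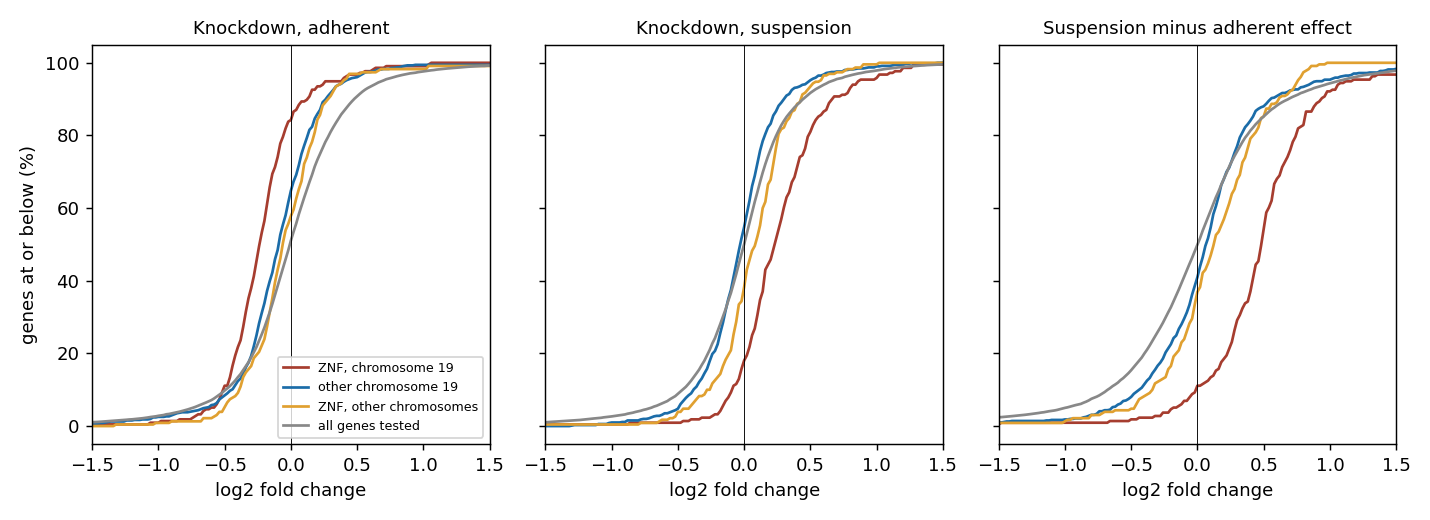
Share of genes (%) at or below each log2 fold change for the 216 chromosome 19 ZNF genes, 710 other chromosome 19 genes, 230 ZNF genes on other chromosomes and all 17115 genes tested. The curve of the chromosome 19 ZNF genes crosses 50% at -0.24, 0.23 and 0.48 from left to right, while the medians of all genes tested are -0.01, 0.00 and 0.00.

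Move to suspension lowered 118 and raised 17 of the 216 genes in wild-type cells, against 28% and 27.7% of all genes tested, with a median log2 change of -0.34. These values rest on the same wild-type libraries as the knockdown comparisons. The raised count was 10 without wild-type adherent replicate 1 and 11 without wild-type suspension replicate 3, and scaling on the other chromosome 19 genes left 77 lowered and 16 raised. That scaling left 2974 lowered and 4930 raised of all 17115 genes tested. ZNF134 went from 61.7, 61.7 and 57.1 CPM in adherent wild-type cells to 28.9, 27.9 and 29.1 CPM in suspension (-1.07, SE 0.07, adjusted p = 7.4e-10 by edgeR). ZNF45 went from 109 ± 10.1 to 57.6 ± 3.16 CPM (SD, n = 3; -0.92, SE 0.08), and ZNF492 from 4.45 ± 0.37 to 2.00 ± 0.28 CPM (-1.14, SE 0.20). Among the genes that rose were ZNF738 (0.87, SE 0.10), ZNF627 (0.81, SE 0.14), ZNF554 (0.80, SE 0.13), ZNF681 (0.75, SE 0.15) and ZNF93 (0.72, SE 0.17).

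In knockdown cells the same move raised 72 and lowered 26 genes, against 26.7% and 29% of all genes tested, with a median of 0.13. The lowered count was 16 without adherent knockdown replicate 1 and 17 without suspension knockdown replicate 2. With scaling on the other chromosome 19 genes, 64 were raised and 15 lowered, against 4297 and 3827 of all 17115 genes tested. The largest rises were those of ZNF135 (2.25, SE 0.20), ZNF610 (2.12, SE 0.30), ZNF738 (1.59, SE 0.10), ZNF627 (1.48, SE 0.15) and ZNF83 (1.48, SE 0.13). ZNF738 rose in both lines, from 13.9, 13.0 and 12.7 CPM to 24.8, 23.6 and 23.9 CPM in wild type and from 10.4, 10.003 and 11.4 CPM to 35.2, 32.4 and 28.8 CPM in the knockdown. The largest falls were those of ZNF486 (-2.56, SE 0.23), ZNF671 (-1.42, SE 0.22), ZNF235 (-0.95, SE 0.16), ZNF628 (-0.82, SE 0.14) and ZNF787 (-0.68, SE 0.12). Set side by side, 22 genes fell in wild type and rose in the knockdown, 20 fell in both, 13 rose in both and 1 rose in wild type and fell in the knockdown. Among all 17115 genes tested these counts were 135, 3095, 3013 and 304, and among the 710 other chromosome 19 genes 10, 188, 130 and 4.

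By position, called genes lay on both arms. On the short arm 20 of 60 genes were lower and 5 higher in the adherent knockdown, and 20 were higher and 1 lower in the suspension knockdown. On the long arm 54 of 156 were lower and 2 higher in adherent culture, and 58 were higher and 2 lower in suspension. The median difference between the 2 effects was 0.48 on both arms. The annotated genes formed 16 clusters when starts less than 1 Mb apart were joined, and 7 of these held at least 10 of the 216 genes. Over those 7 the cluster medians ran from -0.32 to -0.17 in adherent culture, from 0.09 to 0.39 in suspension and from 0.30 to 0.69 for the difference. With a gap of 0.5 Mb, 8 clusters held at least 10 genes, and the lowest median among them was -0.01 in suspension and -0.02 for the difference.

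**Figure D5:**
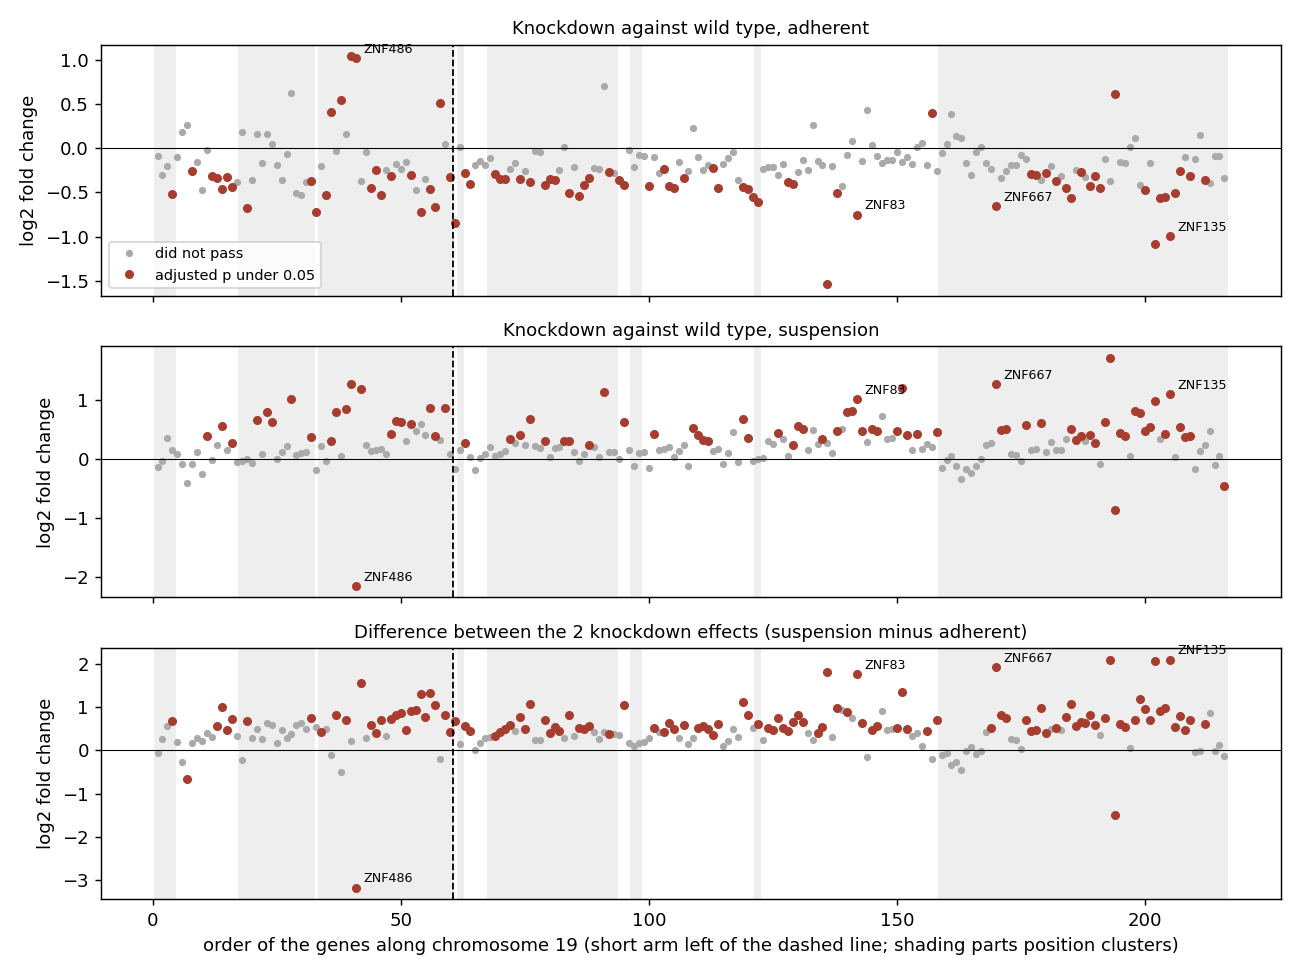
Log2 fold change of the 216 genes in their order along chromosome 19, for knockdown in adherent culture (top), in suspension (middle) and the difference between them (bottom); red points passed the threshold, the dashed line parts the arms and shading parts the clusters. In adherent culture 74 of 81 red points lie below 0, and in suspension 78 of 81 lie above 0.

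The largest cluster, from 55.5 to 58.5 Mb on the long arm, holds 58 of the genes and includes ZNF667. In it 20 genes were lower and 1 higher in the adherent knockdown and 24 were higher and 2 lower in suspension. With a gap of 0.5 Mb this cluster was cut between ZNF835 and ZNF264, so its counts do not describe the stretch around ZNF667 alone. The cluster from 51.6 to 53.5 Mb, with 36 genes including ZNF83, ZNF610 and ZNF347, had 5 lower and 1 higher in adherent culture and 17 higher and none lower in suspension, where all 36 values were above 0. The cluster from 19.7 to 24.0 Mb on the short arm, with 27 genes, held genes of both directions: 10 were lower and 5 higher in adherent culture, and 12 were higher and 1 lower in suspension. Other protein-coding genes inside the spans of the clusters numbered 81. Of these, 12 were lower and 4 higher in adherent culture (median -0.04), 7 were lower and 5 higher in suspension (median -0.00), and the median difference was 0.08. No test of the clusters against each other was made.

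ZNF667 (ENSG00000198046) spans chr19:56439325-56478065 (GRCh38, minus strand). Its level ran from 26.2 to 29.4 CPM in wild-type adherent cells and from 15.7 to 19.01 CPM in the adherent knockdown, a change of -0.66 (SE 0.12, adjusted p = 0.000496 by edgeR). In wild type it fell on the move to suspension (-0.99, SE 0.12), and in the knockdown it rose (0.92, SE 0.12). By group means the order was suspension knockdown (33.4 ± 6.13 CPM, SD, n = 3), wild-type adherent (27.7 ± 1.57), adherent knockdown (17.6 ± 1.71) and wild-type suspension (13.9 ± 1.35). The upper pair overlapped, since 1 suspension knockdown library lay below the highest wild-type adherent library, whereas the other neighbours in this order did not overlap. ZNF667-AS1, a long noncoding RNA on the plus strand that shares 816 bases with the start of ZNF667, gave its highest and lowest levels in the same groups: 15.7 to 16.3, 10.1 to 11.3, 6.82 to 8.76 and 16.9 to 20.6 CPM in wild-type adherent, adherent knockdown, wild-type suspension and suspension knockdown cells. The strand setting of the counting is not given in the sources used here, so reads from the shared stretch cannot be told apart.

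The neighbours of ZNF667 had smaller log2 values on knockdown. On the lower side, ZNF444 had log2 fold changes of 0.02 in adherent culture and -0.01 in suspension, and ZNF582 of -0.17 and 0.24, with none of these past the threshold. ZNF583 was at -0.24 and 0.27, and the difference between them was 0.50 (SE 0.16). That call was lost without adherent knockdown replicate 1 or 3, wild-type suspension replicate 1 or 3, or suspension knockdown replicate 1 or 2, with adjusted edgeR p between 0.0574 and 0.1, and with scaling on the other chromosome 19 genes (adjusted p = 0.143). On the upper side, ZNF470 was at 18.0, 21.8 and 16.5 CPM in wild-type adherent, 15.1, 16.9 and 15.2 in adherent knockdown, 12.6, 11.6 and 13.3 in wild-type suspension and 19.9, 16.3 and 16.9 in suspension knockdown cells. Its change in suspension was 0.50 (SE 0.12) and the difference 0.75 (SE 0.17). ZNF471 had log2 fold changes of -0.34 and 0.48, with the suspension call lost without wild-type suspension replicate 2 or 3 (adjusted p = 0.15 and 0.0722 by edgeR) or suspension knockdown replicate 1 (adjusted p = 0.185). With scaling on the other chromosome 19 genes, both that call (adjusted p = 0.103 by edgeR) and the call of its difference (adjusted p = 0.0782) were lost. ZNF71 was at -0.19 and 0.07, neither past the threshold. PEG3, the imprinted zinc finger gene further along, was at most 0.606 CPM in any library and was not tested.

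ZNF486 and ZNF671, the pair with the most negative differences, each have a neighbour that rose in suspension. Of all 216 genes 81 were called in suspension, nearly all of them higher, so such a neighbour is not particular to this pair. Both neighbours were already named as large rises, and the neighbours on the other side are not given. ZNF486 (ENSG00000256229, chr19:20167228-20200490, plus strand) follows ZNF90 (ENSG00000213988, chr19:20077994-20127076, plus strand), and in suspension knockdown cells the first fell by 2.15 on the log2 scale and the second rose by 1.27. In adherent culture both rose, by 1.02 and 1.05. Only 0.132% of the 100-base windows of the ZNF486 transcript with the longest coding part also occur in another gene, chiefly ZNF90. ZNF671 (ENSG00000083814, chr19:57719751-57727624, minus strand) lies next to ZNF154 (ENSG00000179909, chr19:57697367-57709194, minus strand), whose values in suspension were given above as a rise of 1.71. In each pair both genes are on the same strand.

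Zinc finger genes of chromosome 19 under other names were taken by symbol, as those starting ZFP, ZSCAN, ZKSCAN, ZIM or ZBTB, and PEG3. Zinc finger genes with still other symbols were not included. No minimum level was set, so ZBTB32 was kept at a mean of 0.708 CPM. Of the 18 genes taken, 11 were tested: 4 were lower and 1 higher in the adherent knockdown, and 1 was higher and none lower in suspension. Shares over all genes tested were 11.8% lower and 15.2% higher in adherent culture, and 8.3% higher and 12.6% lower in suspension. The 4 that fell were ZFP14 (-0.53, SE 0.09), ZFP82 (-0.73, SE 0.08), ZFP30 (-0.46, SE 0.08) and ZSCAN18 (-0.62, SE 0.09). ZSCAN18 overlaps ZNF135 on the other strand. ZBTB7A, which encodes a repressor with a BTB domain and no KRAB domain, rose by 0.30 (SE 0.09) in adherent culture and by 0.30 (SE 0.10) in suspension. Their median difference between the 2 knockdown effects was 0.43.

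The partners through which KRAB proteins silence DNA were called on knockdown at shares near those of all genes in adherent culture, and in both directions. Of 23 genes for co-repressors and heterochromatin proteins, 3 were lower and 4 higher in the adherent knockdown (13.0% and 17.4%, against 11.8% and 15.2% of all genes tested). In suspension 4 were higher and 2 lower (17.4% and 8.70%, against 8.3% and 12.6%), and for the difference 5 were above and 2 below 0 (21.7% and 8.70%, against 9.46% and 14.6%). The medians were -0.02, 0.11 and 0.04, and counts this small were not read as particular to the list. TRIM28, at a mean of 211 FPKM, had log2 fold changes of -0.00 (SE 0.08) in adherent culture and of -0.19 (SE 0.08) in suspension, and SETDB1 of -0.15 (SE 0.07) and -0.11 (SE 0.07), none past the threshold. DNMT1, the maintenance DNA methyltransferase, was at 465, 491 and 474 CPM in wild-type adherent, 418, 410 and 434 in adherent knockdown, 336, 333 and 332 in wild-type suspension and 384, 384 and 388 in suspension knockdown cells. It fell by 0.18 (SE 0.06) in adherent culture and rose by 0.21 (SE 0.06) in suspension. Its partner UHRF1 was at a log2 fold change of -0.09 (SE 0.07), which did not pass, and rose by 0.35 (SE 0.07) in suspension. The other way round, CBX1, which encodes the HP1 beta protein, rose by 0.17 (SE 0.06) in adherent culture and fell by 0.22 (SE 0.06) in suspension, with a difference of -0.39 (SE 0.09, adjusted p = 0.0032 by edgeR). EHMT1, a histone H3 lysine methyltransferase, rose by 0.46 (SE 0.06) in adherent culture and was at 0.16 (SE 0.06) in suspension, which did not pass, with a difference of -0.29 (SE 0.09, adjusted p = 0.0225 by edgeR). These 4, a pair for each sign of the difference, were picked from the called genes of the list after their values were seen. On the move to suspension 16 of the 23 fell in wild type (69.6%, against 28% of all genes tested) and 13 in the knockdown (56.5%, against 29%).

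Features of the encoded proteins and transcripts were read from the GENCODE annotation for 215 of the 216 genes. The translated coding sequences hold from 1 to 31 C2H2 fingers, with a median of 12. A match to the core of the KRAB A box was found in 160 and in 55 none was found. The search took a single short pattern: F, then S or T, any pair of residues, E and W. Any KRAB domain that departs from it is counted in the 55, which are therefore not a list of genes without KRAB. Of the 160, 51 were lower and 7 higher in the adherent knockdown (median -0.24), and 66 were higher and 2 lower in suspension (median 0.28). Of the 55, 23 were lower and none higher in adherent culture (median -0.24), and 11 were higher and 1 lower in suspension (median 0.09). Genes with up to 9 fingers, 10 to 14 and 15 or more had median differences between the 2 effects of 0.39, 0.50 and 0.50. These subsets were not tested against each other.

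Genes with stretches of sequence in common can share reads. For each gene the 100-base windows of the transcript with the longest coding part were searched in other genes. In 31 genes at least 10% of these windows occur in another gene, and their values are uncertain to that extent. In 124 no window does. The gene sharing most windows was in some cases a related ZNF gene, as ZNF585A for ZNF585B. In others it was an unnamed or read-through gene, as ZNF559-ZNF177 for ZNF559. In the 31, 7 were lower and none higher in adherent culture, and 9 were higher and none lower in suspension, with medians of -0.25 and 0.24. Another gene with at least 1 CPM overlapped 83 of the 216, on the opposite strand in 57. The medians in adherent culture and suspension were -0.24 and 0.26 for the 83 and -0.24 and 0.20 for the 133 with no overlap. Among the genes named, ZNF667, ZNF135, ZNF83, ZNF154, ZNF146, ZNF227, ZNF45 and ZNF506 overlap a gene on the other strand, ZNF227 sharing 8540 bases with ZNF235. So do ZNF446, ZNF428, ZNF582, ZNF235, ZNF585A and ZNF585B.

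The transcripts of the ZNF genes are poor in GC, with a median of 42.3% against 60.2% for the other chromosome 19 genes and 48.0% for all genes tested. Between 37.5% and 53.0% GC lie 85 other chromosome 19 genes. Of these, 34 were lower and 3 higher in the adherent knockdown (median -0.21), 9 were higher and 2 lower in suspension (median 0.05), and the median difference was 0.21. The 172 ZNF genes in that range had medians of -0.25, 0.25 and 0.50, and 7146 protein-coding genes in that range 0.01, 0.01 and -0.02. In adherent culture 62 of the 172 were lower (36%), against 40% of the 85 and 14.7% of the 7146. By these calls the adherent fall was not particular to the ZNF genes in this range. In suspension 68 of the 172 were higher (39.5%), against 10.6% of the 85 and 715 of the 7146. For the difference 57.6% of the 172 were called above 0, against 29.4% of the 85 and 11.1% of the 7146. With an offset for GC content in each library, 86 ZNF genes were lower and 7 higher in adherent culture, 85 higher and 3 lower in suspension, and 124 above and 2 below 0 for the difference.

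Other promoter windows of the set were searched for the same sequences. ACTTCCGG, as printed above for ZNF671, was found in 44 of 193 promoters (22.8%), against 6.19% of all 15843 protein-coding promoters, 4.66% of those of other chromosome 19 genes and 13.8% of those of ZNF genes on other chromosomes. CCAAT was found in 50.8%, against 36.4% of all and 37.5% of those of other chromosome 19 genes, and TATAAA in 2.07%, against 9.63% and 8.13%. GGGCGG was found in 65.3%, above the 58.5% of all but not above the 66.7% of other chromosome 19 genes, and AAGATGG (the YY1 core) in 8.81%, against 6.40% and 8.24%. Each search took either strand of 300 bases. Of the 44 genes with ACTTCCGG, 15 were lower and 1 higher in the adherent knockdown (median -0.24), and 21 were higher and 1 lower in suspension (median 0.31). Of the 149 without it, 53 were lower and 5 higher (median -0.25), and 48 were higher and 2 lower (median 0.19). A match describes the letters of the window and was not read as a binding site.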

How the data were processed

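Poly-A RNA of 12 HEK293 libraries was measured. The deposited counts are whole numbers of reads assigned to each gene, which the submitters' processing notes credit to HISAT2 and featureCounts 1.5.0 and to build GRCh38; for the annotation release and strand setting, the value is not given in the sources used here. FPKM values, scaled by the authors for length and library total, fill a second deposited table, which was used for levels and as an alternative.

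Counts were filtered by group with filterByExpr, which kept 17115 genes, scaled by TMM and fitted in edgeR 4.0.16 (R 4.3.3), with 1 mean per group over all 12 libraries. The quasi-likelihood F-test gave 5 contrasts, with Benjamini-Hochberg adjustment over all genes tested and a threshold of 0.05. Standard errors (SE) were taken as the size of the log2 change over the root of F. CPM values are TMM-scaled. No 2 libraries were duplicates. The fit was tested on simulated data. Limma 3.58.1 and DESeq2 1.42.0 served as alternatives.

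The arms were parted at the widest gap between protein-coding genes, 5.08 Mb. Named genes were ZNF667 and its 3 annotated neighbours on each side, the 8 largest rises and falls per knockdown comparison (5 per culture comparison, 4 of each sign for the interaction) among called genes, without overlap of groups in comparisons of 2 groups, genes alike in both knockdowns, the 5 of highest FPKM, and listed partners. The members and lists were chosen with earlier results of these data known. Promoters come from RefSeq (GRCh38.p14), coordinates from the deposited tables.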

Additional observations from a re-analysis of the deposited data

Results flagged for a closer look

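The effect of EXT1 knockdown differed between suspension and adherent culture, by the test of the difference itself (edgeR, adjusted p under 0.05), in the genes given here. The named genes were picked in part for large changes, some for this difference itself, so how many of them differ is not a result; of all 216 zinc finger genes, 115 were above 0 and 3 below, against 9.46% and 14.6% of all genes tested. In log2 units (suspension minus adherent), the differences were 2.09 in ZNF135, 2.08 in ZNF154, 2.06 in ZNF418, 1.92 in ZNF667, 1.8 in ZNF610, 1.76 in ZNF83, 1.56 in ZNF66, 1.35 in ZNF347 and 1.31 in ZNF730. They were 0.93 in ZNF492, 0.82 in ZNF471, 0.75 in ZNF470, 0.72 in ZNF738, 0.68 in ZNF627, 0.66 in ZNF536, 0.61 in ZNF227, 0.58 in ZNF134, 0.55 in ZNF302 and 0.5 in ZNF583. ZNF45 and ZNF146, among the genes of highest level, had 0.41 and 0.33. With scaling on the other chromosome 19 genes, the calls were lost for ZNF146 (adjusted p = 0.25 by edgeR), ZNF45 (adjusted p = 0.154), ZNF583 (adjusted p = 0.143), ZNF302 (adjusted p = 0.0937) and ZNF471 (adjusted p = 0.0782). Below 0 were ZNF414 with -0.67, ZNF671 with -1.49 and ZNF486 with -3.18. Groups of 3 libraries are too small for a search for single libraries far from the rest.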

How the results depend on the processing

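No median of the zinc finger genes, and no called change of a named gene, reversed under any alternative run. Calls of named genes were lost under at least 1 alternative in 11 of 20 for the adherent knockdown, 5 of 15 for the suspension knockdown, 3 of 19 for the move in wild type, 0 of 14 for the move in the knockdown and 6 of 14 for the difference. Scaling on other chromosome 19 genes called 24 genes lower in the adherent and 48 higher in the suspension knockdown, 77 lower on the move to suspension in wild type and 15 in the knockdown, and 51 above 0 for the difference. Over all 17115 genes tested, it called 765, 786, 2974, 3827 and 630 in the same order and directions. Genes called higher in the adherent knockdown were 4 when only the groups compared were fitted, and 4 of those with at least 5 CPM; at that minimum 1 was lower in suspension and 1 below 0 for the difference. Without wild-type adherent replicates 2 and 3, 47 were lower in adherent culture; this and the GC offset were chosen after seeing the data. Genes lower on the move in the knockdown were 17 without TMM and 16 with a stricter count filter, which left 1 below 0 for the difference. Leaving out 1 library gave 4 to 7 higher and 58 to 86 lower (adherent knockdown), 52 to 91 higher and 2 to 4 lower (suspension knockdown), 10 to 19 higher and 101 to 127 lower (move, wild type), 65 to 77 higher and 16 to 30 lower (move, knockdown), and 92 to 132 above and 2 to 4 below (difference). The cause of these shifts was not tested.

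Replicate numbers did not pair the libraries: deviations of same-numbered libraries correlated between -0.16 and 0.15, and 3 of 12 libraries correlated best with their own number. With a replicate block, 77 genes were lower and 7 higher in adherent culture, 77 higher and 3 lower in suspension, and 115 above and 3 below 0 for the difference. Genes with few reads, such as ZNF154 and ZNF418, carry the widest errors.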
